A study of Homo sapiens with 12 samples.

Results

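LHX5, ZIC2 and OTX2 are transcription factors known for their work in the earliest neural ectoderm, and their RNA was followed here through the neural differentiation of human embryonic stem cells with and without an inhibitor of the enzyme USP7. They were chosen by gene symbol, and all 3 were present among the 13310 genes of the expression table. In brief, LHX5, ZIC2 and OTX2 were all lower after differentiation than before it. When the inhibitor FT671 was present, LHX5 was higher than with the solvent alone, while ZIC2 and OTX2 were lower still.

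The cells were H9, a widely used line of human embryonic stem cells, and every library carried the label of a wild-type genotype. The readout was bulk RNA sequencing of 12 libraries, which fall into 4 groups of 3. UNDIF libraries came from cells kept in stem cell medium, and NEUR libraries from cells taken through neural differentiation with neither DMSO nor FT671. By the labels' protocol, differentiation in all NEUR, DMSO_NEUR and FT671_NEUR libraries used the SMAD inhibitors A83-10 and Dorsomorphine at 2 µM each, and later a medium with EGF at 20 ng/ml and bFGF at 5 ng/ml, none of which the protocol lists for UNDIF cells. DMSO_NEUR cells went through differentiation with the solvent DMSO, the vehicle, and FT671_NEUR cells went through it with FT671, which inhibits the deubiquitinating enzyme USP7. The dose and the time of FT671 exposure are not given in the labels used here. The labels name 1 cell line and give no word on whether the 3 replicates of a group were cultured apart, so the p-values below measure the spread between these libraries only.

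LHX5 is a LIM homeodomain factor, a protein that binds DNA through a homeodomain and binds partner proteins of the LDB family through its LIM domains. In mouse it is needed for the hippocampus, and in zebrafish it favours forebrain fate by raising secreted WNT antagonists. ZIC2 is a zinc finger factor whose loss of function causes holoprosencephaly in humans, and in mouse it is needed for neural tube closure. OTX2 is a homeodomain factor of the bicoid class that specifies forebrain and midbrain in mouse, and it is also active in the primed pluripotent state that precedes the neural plate. A bulk library averages over all cells, so fewer cells that express a gene and less RNA per cell cannot be told apart in any value below.

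The DNA at the start of ZIC2 and OTX2 is shown first as background, and none was available here for LHX5. Whether these sequences bear on the levels below was not tested. RefSeq (GRCh38.p14) gave promoter windows of 300 bases, from 250 before to 50 after the start of transcription, for 2 of the 3 genes: 1 window for ZIC2 on the plus strand of chromosome 13 (chr13:99981534-99981833) and 2 for OTX2 on the minus strand of chromosome 14 (chr14:56810430-56810729 and chr14:56805618-56805917). This build differs from the hg19 build named for the alignment, so the windows stand here as reference sequence and not as places of measured reads. Each is printed from 5′ to 3′ along its gene's strand, and capitals mark the CpG dinucleotides.
ZIC2 window: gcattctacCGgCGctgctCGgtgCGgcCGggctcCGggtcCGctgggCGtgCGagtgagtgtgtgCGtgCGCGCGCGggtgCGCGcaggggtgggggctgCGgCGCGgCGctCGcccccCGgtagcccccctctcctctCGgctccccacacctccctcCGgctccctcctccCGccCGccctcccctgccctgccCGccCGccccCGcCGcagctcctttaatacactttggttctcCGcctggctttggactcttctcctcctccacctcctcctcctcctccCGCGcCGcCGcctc
OTX2 window, upstream start: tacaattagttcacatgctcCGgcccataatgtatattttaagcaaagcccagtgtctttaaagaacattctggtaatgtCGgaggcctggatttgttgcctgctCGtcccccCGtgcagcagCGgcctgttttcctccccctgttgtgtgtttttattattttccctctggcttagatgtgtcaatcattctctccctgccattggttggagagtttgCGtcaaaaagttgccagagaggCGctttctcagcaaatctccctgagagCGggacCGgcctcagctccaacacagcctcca
OTX2 window, downstream start: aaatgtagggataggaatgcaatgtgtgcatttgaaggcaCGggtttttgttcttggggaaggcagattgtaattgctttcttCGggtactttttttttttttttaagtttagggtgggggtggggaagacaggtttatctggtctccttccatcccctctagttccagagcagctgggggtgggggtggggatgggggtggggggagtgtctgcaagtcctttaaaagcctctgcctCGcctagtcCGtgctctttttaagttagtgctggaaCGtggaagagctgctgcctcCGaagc

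The ZIC2 start was rich in CpG dinucleotides, and the OTX2 starts held fewer. The ZIC2 window held 35 CpG dinucleotides at a GC content of 75%, more CpGs than 85.9% of the 35116 windows in the table. The OTX2 windows held 9 and 6 CpGs at a GC content of 49.7% and 50.3%, against a median of 14 CpGs and 58.7% over all windows. The motifs TAATCC (bound by OTX-type homeodomains), TAATTA (bound by LIM homeodomains) and CAGCAGG (a ZIC-type core) were searched on both strands. None of these letters stood in the ZIC2 window or in either OTX2 window. Over all windows, 6.36% held TAATCC, 4.84% held TAATTA and 10.5% held CAGCAGG.

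Values are normalized read counts, which are read counts divided by a size factor for each library. The tested scale is log2 of the normalized read count plus a pseudocount of 1, and each change is a limma estimate ± its standard error. Adjusted p-values are limma's, with Benjamini-Hochberg adjustment over all 13310 genes, with calls made where that value was under 0.05. Where groups are said not to overlap, this is a description only. The share of all genes with such separation was not counted. Genes called not measured are absent from the table of 13310 genes. The smallest mean of any gene in it was 12.2 normalized read counts over the 12 libraries, so genes with a lower mean are not in it. Counts, medians, ranks and shares below cover only the genes present. Libraries held 15906471 to 17271155 reads in these genes, and log2 values of replicates correlated across genes with Pearson r of 0.988 to 0.995. NEUR replicate 3 stood apart from the other NEUR libraries: its deviation from the group mean fell with transcript length (Spearman rho -0.560 across the 98.5% of genes with a known length), while replicates 1 and 2 gave 0.470 and 0.395. Results that rest on NEUR libraries were therefore also computed without it.

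LHX5 was among the most strongly reduced genes of the differentiation. The UNDIF libraries had 1781, 1487 and 1524 normalized read counts of LHX5, and the NEUR libraries had 18.6, 13.7 and 12.0. Every NEUR library lay far below every UNDIF library, and the NEUR mean was 0.923% of the UNDIF mean. The change was -6.68 ± 0.18 on the log2 scale (95% interval -7.06 to -6.30, limma adjusted p = 4.62e-15), which placed LHX5 40th from the lowest among 13310 genes. With a pseudocount of 10 in place of 1 the change was -6.03, and without NEUR replicate 3 it was -6.55. In the order of expression levels, LHX5 went from rank 2345 of 13310 in UNDIF to rank 12700 in NEUR.

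ZIC2 fell to a few percent of its undifferentiated level. Its UNDIF libraries had 2841, 2543 and 2758 normalized read counts, and its NEUR libraries had 82.1, 83.2 and 92.6. The groups did not overlap, and the NEUR mean was 3.17% of the UNDIF mean. The log2 change of ZIC2 was -4.96 ± 0.18 (95% interval -5.36 to -4.57, limma adjusted p = 2.27e-13), and -5.02 without NEUR replicate 3.

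OTX2 fell as well, but stayed well expressed. Its UNDIF libraries had 4726, 4948 and 4682 normalized read counts and its NEUR libraries 2241, 2362 and 2280.2. All NEUR libraries were below all UNDIF libraries, at a mean of 48.0% of the UNDIF level. The log2 change of OTX2 was -1.06 ± 0.07 (95% interval -1.21 to -0.91, limma adjusted p = 3.42e-10), and -1.06 without NEUR replicate 3. OTX2 moved from rank 507 to rank 1668 of 13310 in expression level, and its fall was 2087th from the lowest.

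All 3 genes were called lower in NEUR than in UNDIF, in a comparison in which 82.0% of all genes were called, 40.4% higher and 41.6% lower. In the authors' deposited table, the FDR for undifferentiated against neural cells is listed at 0 for ZIC2, at 1.27e-175 for LHX5 and at 1.03e-58 for OTX2. The fall was not equal among them, as the log2 ratio of LHX5 to OTX2 was -1.73 to -1.41 in UNDIF libraries and -7.46 to -6.84 in NEUR libraries. An exact two-sided permutation test of that ratio over 3 against 3 libraries gave p = 0.1, the smallest p such a design allows, and adjustment over 6 ratio tests by Benjamini and Hochberg left it at 0.1. Ranges that do not overlap always give this p, so the test adds nothing to the ranges themselves.

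**Figure D1:**
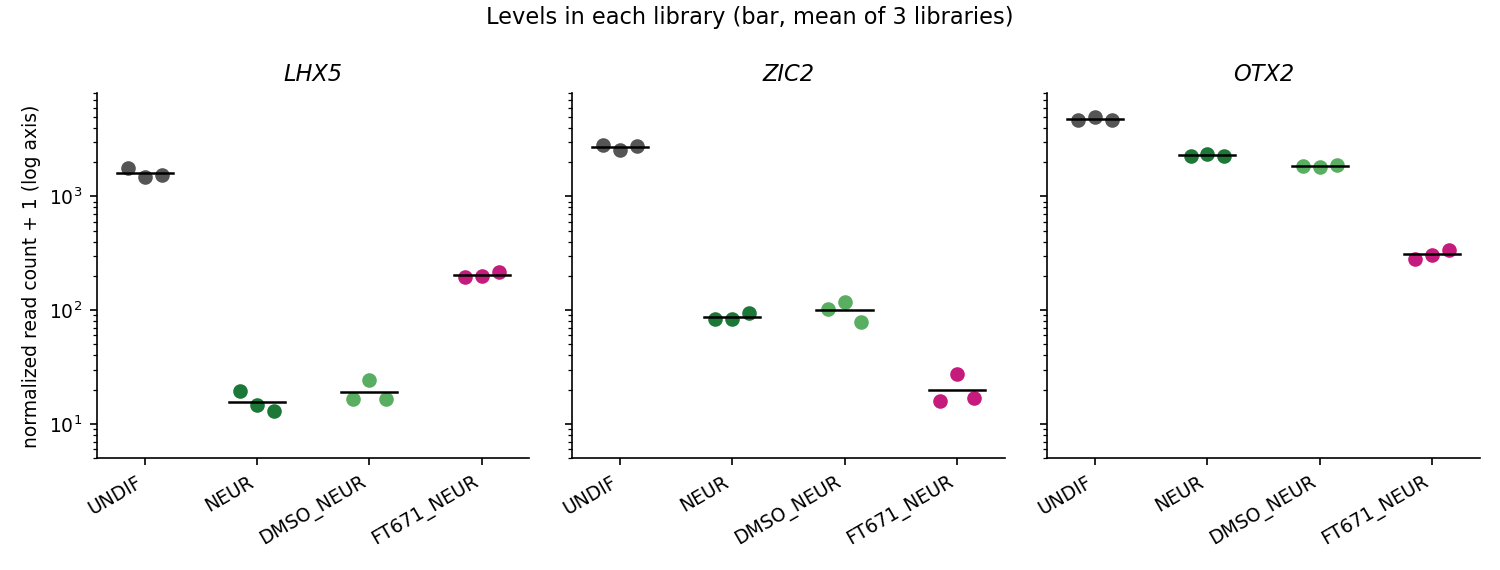
Normalized read count plus 1 of LHX5, ZIC2 and OTX2 (log axis) in each library of the 4 groups, with points for libraries and bars for the mean of 3. LHX5 drops from 1597 to 14.7 between UNDIF and NEUR and stands at 203 in FT671_NEUR, while ZIC2 and OTX2 are lowest in FT671_NEUR, at 19.0 and 309.

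The vehicle by itself left LHX5 and ZIC2 at levels that overlapped those of untreated neural cells. DMSO_NEUR libraries had 15.6, 23.2 and 15.6 normalized read counts of LHX5 and 101, 117 and 78.2 of ZIC2. For LHX5 the log2 difference from NEUR was 0.28 ± 0.18 (95% interval -0.10 to 0.66, limma adjusted p = 0.685), and for ZIC2 it was 0.18 ± 0.18 (-0.21 to 0.57, limma adjusted p = 0.795). OTX2 had 1860.4, 1791 and 1867 normalized read counts with the vehicle, each below every NEUR library. Its log2 difference was -0.32 ± 0.07 (95% interval -0.47 to -0.17) and was not called at a limma adjusted p of 0.0603, whereas edgeR's quasi-likelihood test gave an adjusted p of 0.0448. In this comparison limma called 0.398% of all genes, 0.00751% higher and 0.391% lower, and none of LHX5, ZIC2 and OTX2 was among those 53 genes.

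With FT671 the 3 genes parted. FT671_NEUR libraries had 194, 199 and 216 normalized read counts of LHX5, every one above every vehicle library. LHX5 was thus higher by 3.43 ± 0.18 on the log2 scale (95% interval 3.05 to 3.81, limma adjusted p = 1.87e-11), 401st from the highest among 13310 genes. LHX5 stayed lower than in undifferentiated cells, as the FT671_NEUR mean was 12.7% of the UNDIF mean. Whether it rose again or fell less cannot be told from these groups. Rises and falls with FT671, here and below, mean differences from vehicle.

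ZIC2 moved the other way. FT671_NEUR libraries had 14.8, 26.3 and 15.9 normalized read counts of ZIC2, each below every vehicle library. The log2 change was -2.34 ± 0.18 (95% interval -2.73 to -1.95, limma adjusted p = 4.16e-09). These values rest on few reads, 54 over the 3 FT671_NEUR libraries and 305 over the 3 vehicle libraries. The FT671_NEUR mean was 0.701% of the UNDIF mean, below the 3.64% with vehicle.

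OTX2 moved in ZIC2's direction from a much higher level. FT671_NEUR libraries had 282, 307 and 337 normalized read counts of OTX2, all far below every vehicle library. The log2 change was -2.58 ± 0.07 (95% interval -2.72 to -2.43, limma adjusted p = 4.57e-15). OTX2 stood at 38.4% of its UNDIF mean with vehicle and at 6.45% with FT671.

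LHX5, ZIC2 and OTX2 were all called between FT671 and vehicle, in a comparison in which 79.8% of all genes were called, 40.2% higher and 39.7% lower. The comparison of NEUR with UNDIF and the comparison of FT671_NEUR with DMSO_NEUR share no library. Of the genes called lower in NEUR than in UNDIF, 1972 (35.6%) were called higher with FT671, as LHX5 was, and 2191 (39.5%) were called lower, as ZIC2 and OTX2 were. The other 1378 (24.9%) were not called with FT671. Neither direction is therefore rare among genes reduced in differentiation.

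**Figure D2:**
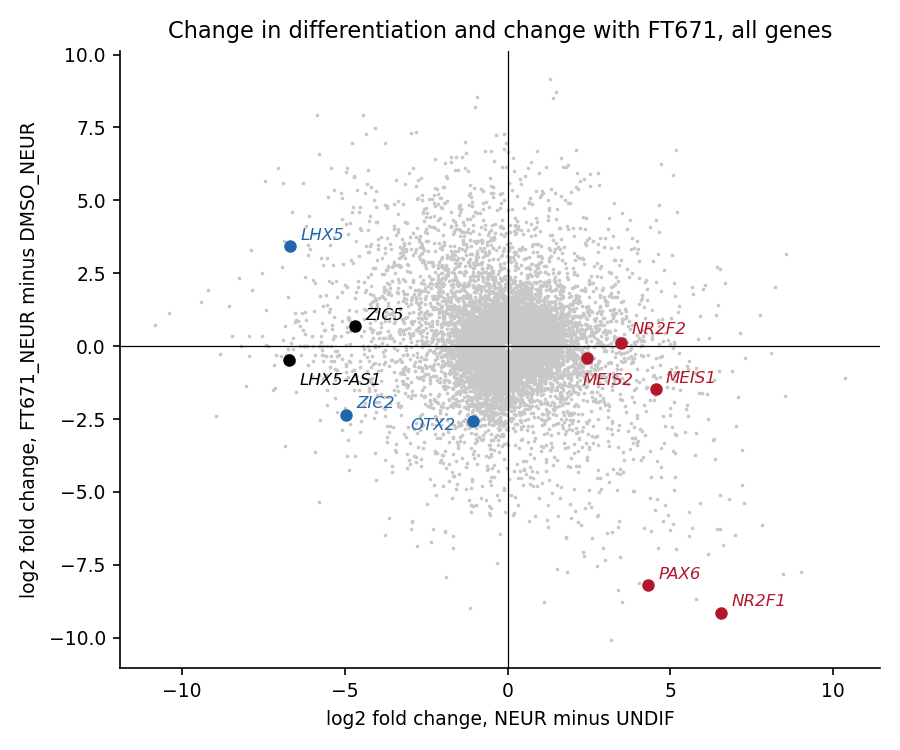
Log2 fold change of NEUR minus UNDIF (horizontal) against that of FT671_NEUR minus DMSO_NEUR (vertical) for all 13310 genes, as grey points, with LHX5, ZIC2 and OTX2 in blue, the PAX6, NR2F and MEIS factors in red, and ZIC5 and LHX5-AS1 in black. LHX5 lies at upper left (-6.68 and 3.43), ZIC2 and OTX2 at lower left, and PAX6 and NR2F1 at lower right.

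Set against undifferentiated cells, both groups that had received an agent were lower for LHX5, ZIC2 and OTX2. With vehicle the log2 changes from UNDIF were -6.40, -4.78 and -1.38 in that order (limma adjusted p = 7.28e-15, 3.65e-13 and 1.14e-11), in a comparison that called 80.1% of all genes, 39.1% higher and 41.0% lower. With FT671 they were -2.97, -7.13 and -3.95 (limma adjusted p = 6.36e-11, 9.99e-16 and 9.14e-18), and that comparison called 88.0% of all genes, 44.0% higher and 43.9% lower. These comparisons share the UNDIF libraries with each other and with NEUR against UNDIF. ZIC2 with FT671 was 70th from the lowest of 13310 genes and LHX5 743rd, whereas with vehicle LHX5 was 58th and ZIC2 211th.

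Levels of genes that mark other cell types differed between the same groups. The summed normalized read count of surface ectoderm and epithelium markers (11 of 12 measured, TP63 not measured, none at 0 in any group, 11 called higher with FT671) ran from 38369 to 40130 in vehicle and from 173705 to 195824 in FT671_NEUR libraries. The sum of trophoblast and amnion markers (8 of 10 measured, 1 at 0 with vehicle and none with FT671, 7 called higher and 1 lower) ran from 8480 to 9614 with vehicle and from 23399 to 27685 with FT671. Most of that difference was IGFBP3, at 7097 with vehicle and 19023 with FT671, while PGF fell from 856 to 339. Neural progenitor markers (5 of 6 measured, SOX1 not measured, none at 0, 5 called lower) summed to 44625 to 45927 with vehicle and to 5726 to 6052 with FT671. Mesenchyme markers (7 of 8 measured, none at 0) summed to 56893 to 71478 and to 126614 to 131085 in these groups, but only 3 of the 7 were called higher and 4 were called lower. COL1A2 alone went from 38827 to 86503, while THY1 went from 1486 to 143. Neural crest markers (8 of 10 measured, 1 at 0 with vehicle and none with FT671) summed to 6140 to 6497 with vehicle and to 2203 to 2429 with FT671, with 5 called lower and 3 higher. Most of that difference was ETS1, at 5160.1 with vehicle and 908 with FT671, while SNAI2 rose from 231 to 449. Neuron markers (6 of 8 measured, none at 0) summed to 2003 to 2030 and to 2536 to 2943, but 4 of the 6 were called lower with FT671 and 2 higher. INA went from 1084 to 2085, while STMN2 fell from 233 to 4.94. The FT671_NEUR libraries therefore carry a neural differentiation label but a low level of neural progenitor markers, and the part of these markers in the changes of LHX5, ZIC2 and OTX2 was not tested. Marker levels also differed between UNDIF and NEUR libraries, where pluripotent cell markers (5 of 6 measured, NANOG not measured, 1 at 0 in NEUR) summed to 17457 to 19733 and to 2836 to 2975. Neural progenitor markers summed to 22130 to 26158 and to 41586 to 43016 there, with 4 called higher in NEUR and 1 lower. NES went from 10600 to 25523, while SOX2, which is also counted among the pluripotent cell markers, fell from 9263 to 1335. Surface ectoderm and epithelium markers summed there to 17509 to 17941 and to 48160 to 59941, although 7 of the 11 were called lower in NEUR and 4 higher.

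The antisense RNA that starts beside LHX5 was low in every neural group, FT671_NEUR included. LHX5-AS1, a long non-coding RNA transcribed from the opposite strand, overlaps the start of LHX5 on chromosome 12 in the GENCODE annotation, and it was chosen after its values were seen. Its UNDIF libraries had 391, 363 and 368 normalized read counts and its NEUR libraries 1.96, 2.94 and 2.99, a log2 change of -6.71 ± 0.33 (limma adjusted p = 7.52e-12). With vehicle it had 3.89, 3.87 and 5.86, and with FT671 2.12, 5.26 and 2.12, so these groups overlapped. The log2 difference was -0.47 ± 0.33 (95% interval -1.16 to 0.22, limma adjusted p = 0.190), and -0.81 with an adjusted p of 0.0287 without FT671_NEUR replicate 2.

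The log2 ratio of LHX5 to LHX5-AS1 was 2.03 to 2.18 in UNDIF libraries and 1.70 to 2.73 in NEUR libraries. It was 1.28 to 2.31 with vehicle and 5.00 to 6.12 with FT671, a difference of 3.91. These ratios are a description with no test, since LHX5-AS1 was picked for its values, and it had 14 reads over the vehicle libraries and 9 over the FT671_NEUR libraries. Whether the authors counted by strand is not given in the sources used here, so reads of LHX5 and LHX5-AS1 in their overlap cannot be told apart.

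ZIC5 is the neighbour of ZIC2 on chromosome 13, on the opposite strand, and encodes a related zinc finger factor with a part in neural crest formation in frog and mouse. Both were reduced in differentiation, ZIC5 from 1359.6 ± 102 to 52.2 ± 4.10 (mean ± SD, n = 3), a log2 change of -4.68 ± 0.14 (limma adjusted p = 1.71e-14). With FT671 the neighbours parted. ZIC5 had 41.8, 51.3 and 51.8 normalized read counts with vehicle and 83.7, 86.3 and 65.8 with FT671, groups that did not overlap. The change of ZIC5 was 0.69 ± 0.14 (limma adjusted p = 2.96e-04), a rise, where ZIC2 fell.

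The log2 ratio of ZIC2 to ZIC5 was 0.58 to 1.25 with vehicle and -2.42 to -1.68 with FT671. The difference of -3.03 had an exact two-sided permutation p = 0.1, the smallest p the design allows, and Benjamini-Hochberg adjustment over 6 ratio tests left it at 0.1. As above, ranges that do not overlap always give this p. For ZIC genes, gene totals do not show how reads that match several paralogs were assigned, and the values of ZIC2 and ZIC5 are uncertain to that extent.

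**Figure D3:**
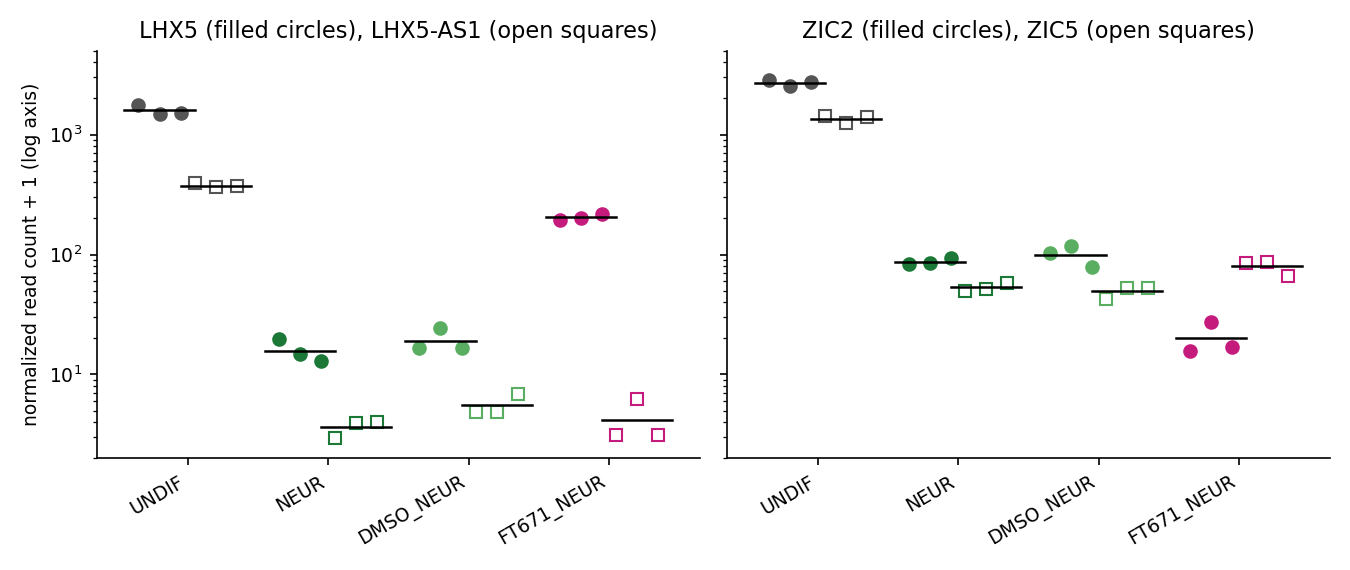
Normalized read count plus 1 (log axis) in each library for LHX5 and LHX5-AS1 and for ZIC2 and ZIC5, by group, with filled circles for the first gene and open squares for the second. Both pairs fall between UNDIF and NEUR, and they separate in FT671_NEUR, where LHX5 is at 203 beside 3.17 for LHX5-AS1 and ZIC2 is at 19.0 beside 78.6 for ZIC5.

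Among OTX and LIM homeodomain paralogs, 5 of 13 were measured. In NEUR against UNDIF, 1 was higher and 4 were lower, and with FT671 against vehicle 1 was higher, 3 were lower and 1 was not called. Over all genes 82.0% and 79.8% were called in these comparisons, shares against which this and the following list counts are to be read. OTX1, the paralog of OTX2 with a part in cortex development in mouse, had 48.6, 68.8 and 66.4 normalized read counts with vehicle and 10.6, 7.37 and 2.12 with FT671. The FT671_NEUR libraries were all below the vehicle libraries, and OTX1 fell by 3.20 on the log2 scale (SE 0.35, limma adjusted p = 2.62e-07). In NEUR against UNDIF its change was -0.96 ± 0.35 (limma adjusted p = 0.0178), which was no longer called without UNDIF replicate 1 (adjusted p = 0.0758) or without NEUR replicate 2 (adjusted p = 0.0508).

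LHX2, a LIM homeodomain factor needed for eye and forebrain in mouse, was lower with FT671, as OTX2 and OTX1 were. It had 58.3, 49.4 and 55.7 normalized read counts with vehicle, and with FT671 1.06 in replicate 1 and 0 in replicates 2 and 3. The ratio of vehicle to FT671 was 154, with a counting interval of 27.4 to 6137 that covers counting error only, from 168 reads against 1 read. LMX1A, a LIM homeodomain factor of the roof plate and of midbrain dopaminergic progenitors, had 6.81, 6.78 and 9.77 with vehicle and 0 in all 3 FT671_NEUR libraries. It was at least 7.36-fold lower, against a floor of 3 reads over the group. In NEUR against UNDIF, LHX2 had a log2 change of -0.96 ± 0.28 (limma adjusted p = 0.00508) and LMX1A one of -3.11 ± 0.34 (adjusted p = 2.27e-07).

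LMX1B, the close paralog of LMX1A, was the only measured gene of its list called higher, both in NEUR against UNDIF and with FT671 against vehicle. It rose in NEUR from 33.6 ± 5.11 to 271 ± 35.1 (2.98 ± 0.15, limma adjusted p = 1.27e-11) and was higher again with FT671, at 466, 445 and 369 against 255, 192 and 212 with vehicle (0.96 ± 0.15, limma adjusted p = 1.92e-05). LHX4, a pituitary and motor neuron factor, fell in NEUR from 92.0 ± 7.33 to 62.9 ± 9.22 (-0.55 ± 0.19, limma adjusted p = 0.0128). Its difference with FT671 was 0.13 ± 0.19 and was not called (limma adjusted p = 0.532).

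LIM homeodomain factors work in complexes built on LDB proteins, which the LMO proteins compete for and the SSBP proteins stabilise. Of 10 such cofactors 8 were measured, and with FT671 6 were lower and 2 were higher than with vehicle, where 39.7% of all genes were lower and 40.2% higher. Their median log2 change was -0.70, against 0.01 over all genes. LDB2 fell from 62.0 ± 7.16 with vehicle to 5.30 ± 3.19 with FT671 (-3.46 ± 0.28, limma adjusted p = 6.74e-09), and LDB1, the main bridging protein, fell by 0.35 on the log2 scale (SE 0.08, adjusted p = 6.32e-04). SSBP3 fell by 1.35 (limma adjusted p = 1.07e-10) and SSBP2 fell by 1.05 (adjusted p = 8.47e-10). LMO4, an LDB-binding protein with no DNA-binding domain, rose from 599 ± 8.96 to 815 ± 11.6 (0.44 ± 0.07, limma adjusted p = 1.49e-05), and RLIM, a ubiquitin ligase that acts on LDB proteins, rose by a log2 change of 0.34 ± 0.10 (adjusted p = 0.00436).

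The remaining falls among these cofactors each depended on single libraries. LMO1 had 7.46 ± 3.00 normalized read counts with vehicle and 2.47 ± 0.598 with FT671, a log2 change of -1.24 ± 0.40 (limma adjusted p = 0.00886) that was not called without DMSO_NEUR replicate 3 (0.0517). SSBP4 had a log2 change of -0.34 ± 0.12 (limma adjusted p = 0.0186), not called without DMSO_NEUR replicate 2 (0.0601) or FT671_NEUR replicate 2 (0.0712). Between UNDIF and NEUR, 3 cofactors rose and 4 fell. LDB2 fell there from 407 ± 19.4 to 60.0 ± 4.95, LMO1 fell by 2.98 on the log2 scale and LMO4 by 1.02, while SSBP4 rose by 0.64 and RLIM by 0.41. LDB1 (0.23, limma adjusted p = 0.0115) lost its call when scaled by library totals (0.260), without UNDIF replicate 3 (0.0730) and without NEUR replicate 2 (0.0559), and SSBP3 (-0.25, adjusted p = 0.00918) lost it without UNDIF replicate 1 (0.0616).

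**Figure D4:**
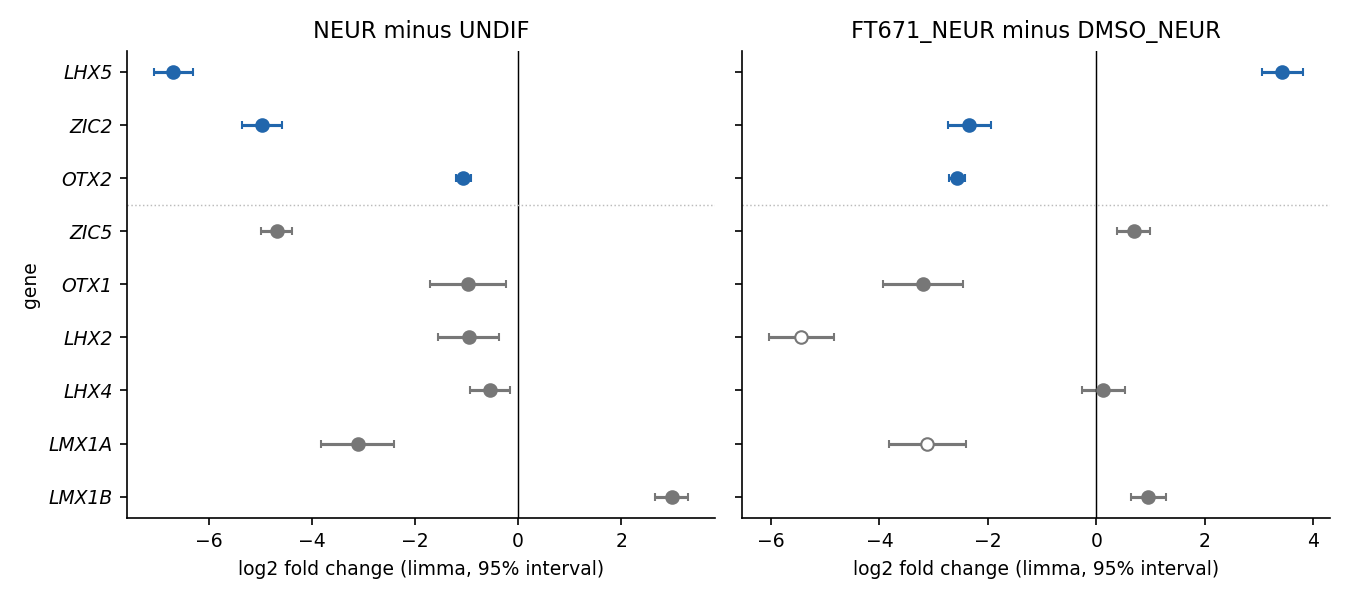
Log2 fold changes with 95% intervals (limma) of LHX5, ZIC2 and OTX2 (blue) and of paralogs (grey), in NEUR against UNDIF and in FT671_NEUR against DMSO_NEUR, with open circles where a group had 3 reads or fewer, so that the fitted fold depends on the pseudocount. With FT671 the intervals of LHX5, ZIC5 and LMX1B lie above 0 and those of ZIC2, OTX2, OTX1, LHX2 and LMX1A below it.

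Other factors of the anterior neural plate and forebrain were set beside these genes. Of 20 listed, 11 were measured, of which 5 were higher and 6 lower in NEUR than in UNDIF (median -0.50, against -0.03 over all genes). With FT671, 7 were lower, none was higher and 4 were not called (median -4.49, against 0.01 over all genes), though fits of only the groups compared and without FT671_NEUR replicate 3 called 1 higher. FEZF1, a forebrain zinc finger repressor, resembled LHX5 and ZIC2 in differentiation, from 2835 ± 293 to 154 ± 6.20 (-4.19, limma adjusted p = 5.55e-15). With FT671 it stood at 167 ± 7.42 beside 149.5 ± 23.2 with vehicle (0.17 ± 0.11, limma adjusted p = 0.188). LIX1 fell by 6.34 with FT671 (limma adjusted p = 9.67e-17), and EMX2, a cortical patterning factor, was at least 91.0-fold lower.

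PAX6, NR2F1, NR2F2, MEIS1 and MEIS2, factors of established neural progenitors, gave the opposite pattern in differentiation. All 5 were higher in NEUR than in UNDIF (median log2 change 4.32), where LHX5, ZIC2 and OTX2 were lower. PAX6, NR2F1 and NR2F2 are also counted in the anterior neural plate and forebrain list above, and PAX6 among the neural progenitor markers, so the counts share genes. PAX6 had 187, 190.1 and 152 normalized read counts in UNDIF, and 3549.5, 3681 and 3325 in NEUR. With FT671 PAX6 had 18.0, 11.6 and 9.56 against 3754, 4250.1 and 3952 with vehicle, a log2 change of -8.19 ± 0.16 (limma adjusted p = 1.03e-16). NR2F1 had 1 read over the 3 FT671_NEUR libraries together against 2206 reads with vehicle, a ratio of 2028 (counting interval 364 to 80155). NR2F2 was not called (0.12 ± 0.10, limma adjusted p = 0.245), although a fit of only the groups compared called it (0.0166), and MEIS1 and MEIS2 fell by 1.46 and 0.40.

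Pan-neural plate genes were lower with FT671 in 13 of 14 measured genes of 17 listed (median log2 change -4.44), and none was higher. NES, SOX2, SOX3 and CDH2 of this list are also the neural progenitor markers above, beside PAX6, so these counts are not separate results. SOX2, a factor of both pluripotent and neural progenitor cells, fell from 1585 ± 134 to 13.0 ± 3.96 (-6.86 ± 0.16, limma adjusted p = 8.18e-16), and CDH2, the neural cadherin, fell by 7.76 (adjusted p = 2.03e-17). POU3F2 was at least 409-fold lower, and SOX3 was lower with a ratio of 768 (counting interval 263 to 3727). Between UNDIF and NEUR, 4 of them rose and 8 fell (median -0.52). PAX7 and SOX21 were among the falls, at -6.14 (limma adjusted p = 4.11e-08) and -3.76 (adjusted p = 5.99e-08), and FABP7 fell by 4.87 (adjusted p = 2.01e-11). PAX7 had only 5 reads over the NEUR libraries, so its fitted fold depends on the pseudocount. POU3F2 was the largest rise at 3.53 (adjusted p = 3.24e-11).

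OTX2 and the homeodomain factor GBX2 repress each other at the midbrain-hindbrain boundary in mouse. GBX2 fell in NEUR from 54.4 ± 9.30 to 14.5 ± 5.86 (-1.91 ± 0.29, limma adjusted p = 1.15e-05). It rose with FT671, from 16.5 ± 3.82 to 49.4 ± 3.03 (1.54 ± 0.29, limma adjusted p = 1.14e-04), where OTX2 fell. Of the boundary and hindbrain list, 7 of 17 were measured, and with FT671 3 were higher and 3 lower, the latter 1 without DMSO_NEUR replicate 3 or in a fit of only the groups compared. IRX2 rose by 1.66 (limma adjusted p = 2.42e-10), and HOXB2 was at least 74.8-fold lower. In NEUR against UNDIF, 2 were higher and 5 lower, with HOXB2 at least 99.4-fold higher, FGF8 lower by a log2 change of -4.83 (limma adjusted p = 4.42e-06), IRX2 at -4.08 (adjusted p = 2.85e-15) and IRX1 at -3.58 (adjusted p = 2.62e-11). FGF8 had only 4 reads over the NEUR libraries, so its fitted fold depends on the pseudocount.

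Genes of the primed pluripotent state, which LHX5, ZIC2 and OTX2 accompany in UNDIF, were lower in NEUR in 15 of 15 measured genes of 20 listed (median -4.30). POU5F1, TDGF1, DPPA4 and PRDM14 of this list are also counted among the pluripotent cell markers above. POU5F1 had a mean of 2459 ± 172 in UNDIF and 0.978 ± 0.978 in NEUR, TDGF1 was at least 692-fold lower, and VRTN fell by 8.95 (limma adjusted p = 5.62e-14). With FT671, 5 were higher and 6 lower (median -0.01), of which the higher were 2 with a pseudocount of 10 and 3 by DESeq2. L1TD1, an RNA-binding protein of pluripotent cells, rose by 5.06 ± 0.15 (limma adjusted p = 1.69e-14), from 74.2 ± 16.4 with vehicle to 2498 ± 405 with FT671, and thus shared LHX5's directions. FOXD3 was at least 22.1-fold higher with FT671, LIN28A fell by 3.02 (limma adjusted p = 1.05e-14) and VRTN was at least 3.99-fold lower. POU5F1 was near 0 in both groups, at 1.62 ± 1.48 with vehicle and 4.23 ± 2.10 with FT671, and was called (limma adjusted p = 0.0406) although the groups overlapped.

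Genes grouped as WNT antagonists, most of which block WNT ligands or receptors from outside the cell, were measured for 9 of 14 listed. Among them, SHISA2 and SHISA3 do not encode secreted proteins. In NEUR against UNDIF, 3 were higher and 6 lower (median -4.06), with SHISA3 at -6.74 (limma adjusted p = 8.37e-10), SFRP5 at -5.38 (adjusted p = 2.82e-08), FRZB at -4.90 (adjusted p = 8.55e-10) and SHISA2 at -4.40 (adjusted p = 2.52e-13). Over the NEUR libraries SHISA3 had only 6 reads and SFRP5 only 4, so their fitted folds depend on the pseudocount. With FT671, 2 were higher and 4 lower (median -0.34). SFRP2, at 50676 ± 3025 with vehicle, fell to 49.0 ± 21.6 with FT671 (-10.07, limma adjusted p = 6.38e-17), and DKK2 fell by 3.86, FRZB by 3.23 and DKK1 by 1.92. The ones that rose were abundant: SFRP1 went from 6673 ± 175 with vehicle to 16162 ± 34.0 with FT671 (1.28 ± 0.07, limma adjusted p = 1.38e-11) and DKK3 from 4411 ± 172 to 10203 ± 329 (1.21 ± 0.06, adjusted p = 5.30e-12). Those that rose in NEUR were SFRP2, from 4622 ± 332 to 42149 ± 1629, DKK2, from 5.69 ± 5.10 to 80.0 ± 11.6, and DKK3, from 1084 ± 19.8 to 4348 ± 41.7.

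ZIC proteins bind GLI proteins, the transcription factors of hedgehog signalling, and of 13 hedgehog and GLI genes 11 were measured. GLI3 is among them and is also counted in the pan-neural plate list above. With FT671, 10 were lower and 1 was higher, where 39.7% of all genes were lower and 40.2% higher (median -1.18, against 0.01 over all genes). GAS1, a hedgehog co-receptor, fell by 2.36 (limma adjusted p = 1.35e-12), GLI1, a target and effector of the pathway, by 2.18 (adjusted p = 4.56e-08) and PTCH1, the receptor and a target, by 2.09 (adjusted p = 7.09e-12). The ligand SHH was the gene that rose, from 24.0 ± 9.75 to 127 ± 27.4 (2.40 ± 0.28, adjusted p = 6.56e-07). In NEUR against UNDIF, 2 were higher, 5 lower and 4 not called (median -0.27), and scaling by library totals left 1 higher. SHH rose there by 2.57 (limma adjusted p = 2.72e-07), GLI1 fell by 2.09 (adjusted p = 7.59e-08), and the co-receptors BOC and CDON fell, BOC by 0.86 (adjusted p = 1.22e-07) and CDON from 1004 to 449.8 normalized read counts (adjusted p = 1.46e-06).

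The order of levels differed for each of LHX5, ZIC2 and OTX2. LHX5 was highest in UNDIF, next in FT671_NEUR, and lowest in DMSO_NEUR and NEUR, which overlapped. ZIC2 was highest in UNDIF, then at overlapping levels in DMSO_NEUR and NEUR, and lowest in FT671_NEUR. OTX2 stood in the order UNDIF, NEUR, DMSO_NEUR and FT671_NEUR with no overlap between neighbours, of which NEUR and DMSO_NEUR did not pass limma's threshold. Over the 12 libraries, log2 levels of ZIC2 and OTX2 correlated with Pearson r = 0.859, LHX5 and ZIC2 with 0.601, and LHX5 and OTX2 with 0.124. These are descriptions of 4 group means repeated in 3 libraries each.

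Genes with the most similar patterns were sought among 7562 genes whose group means spanned at least 1 on the log2 scale, by Pearson r over the 12 libraries. For LHX5 they were NMNAT2 (0.999), RIPOR2 (0.996), RIMS3 (0.995), TRIM22 (0.995) and DPP10 (0.994). NMNAT2, an enzyme of NAD synthesis in neurons, stood at 1125 ± 41.9 in UNDIF, 80.9 ± 13.2 in NEUR, 89.1 ± 15.1 with vehicle and 326 ± 9.90 with FT671. For ZIC2 they were CBX2 (0.997), UNG (0.995), PCDH18 (0.994), the unnamed gene ENSG00000272631 (0.994) and LARP7 (0.994).

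CBX2, a Polycomb protein, had 3962 ± 257, 757 ± 28.0, 795 ± 10.9 and 330.3 ± 37.7 normalized read counts in UNDIF, NEUR, DMSO_NEUR and FT671_NEUR. For OTX2 the most similar genes were GJA1 (0.996), CALB1 (0.996), PCDH8 (0.996), LDHB (0.995) and TUNAR (0.995). GJA1, the gap junction protein connexin 43, had 19369 ± 1353, 8902 ± 645, 8357 ± 268 and 1074 ± 90.2 in the same order. These names depend on the settings, as a pseudocount of 10 kept 2 of the 5 for each of LHX5, ZIC2 and OTX2, and leaving out NEUR replicate 3 kept 1, 1 and 3.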

How the data were processed

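RNA was measured in 12 H9 libraries, grouped by the sample titles. Per the submitters' processing notes, STAR, HTSeq and DESeq2 were used with R 4.3.1 and the hg19 genome, with parameters, annotation and strand not given in the sources used here. The deposited signal is the authors' normalized read count plus 1, per the values: after subtracting 1, 100% of values were whole reads times 1 step per library within a tolerance of 0.001. The authors also deposited p-values, as an FDR that compares undifferentiated with neural cells. A further 32 columns were not used. The sheet's title names a USP7 heterozygote, whereas the sample labels, which were followed, give wild type. Vehicle samples are neural by title but undifferentiated by treatment field, and the title was used.

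limma 3.58.1, under R 4.3.3, was fitted to log2(normalized read count + 1), in 1 model with 4 group means over 12 libraries, with a variance trend and Benjamini-Hochberg adjustment over 13310 genes for each of 5 comparisons. The script was checked on simulated data in which far fewer genes changed than here, so that check covers the code and not its accuracy on these libraries. edgeR 4.0.16 and DESeq2 1.42.0 on the recovered reads, other pseudocounts, filters, scalings and left-out libraries were alternatives. The precision of low genes is set by their reads, and intervals of read ratios and the floor of 3 reads cover counting error only. The genes, lists and markers were chosen with earlier results of these data known. Named were measured ZIC, OTX and LIM paralogs and cofactors, up to 4 called genes with the largest changes from each other list and comparison, PAX6, NR2F1 with its set, and 5 most similar genes each, and some results that this rule takes are not reported here. LHX5-AS1, SFRP1, DKK3 and the single cell type markers named were chosen after their values were seen. The table gave no symbol for 763 genes, and 534 of these were named from their identifier.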

Additional observations from a re-analysis of the deposited data

How the results depend on the processing

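For LHX5, ZIC2 and OTX2, every change in NEUR against UNDIF, in FT671_NEUR against DMSO_NEUR and in both against UNDIF kept its direction and its call under all 11 alternative settings and with each of the 12 libraries left out. The change of LHX5 with FT671 ranged from 2.93 to 3.48 over settings, that of ZIC2 from -2.46 to -1.91 and that of OTX2 from -2.70 to -2.54. The comparison of vehicle with untreated neural cells was not stable. There the change of OTX2 was called with a pseudocount of 10 (-0.32, adjusted p = 0.0478), with library totals (-0.33, 0.0461), with edgeR (-0.32, 0.0448) and with DESeq2 (-0.32, 5.18e-04), and not under the other settings, whose adjusted p ran up to 0.340. The 53 genes that limma called there became 111 with DESeq2 and 66 with edgeR, and 0 with limma on only the 2 groups, where 729 had an unadjusted p under 0.05. Leaving out libraries gave 24 to 56, with 24 without DMSO_NEUR replicate 1 and 30 to 32 without either other vehicle library or any FT671_NEUR library. Library totals moved the median of all genes to -0.17 in NEUR against UNDIF and to -0.11 with FT671; relative to that median the changes were -6.66, -4.94 and -1.03 for LHX5, ZIC2 and OTX2 in NEUR, and 3.42, -2.35 and -2.59 with FT671. Replicate numbers showed no clear pairing of libraries. Deviations of same-numbered libraries correlated at -0.172 to 0.0693, and not every library correlated best with its own number. FT671_NEUR libraries did so in 2 of 3 cases against UNDIF and in 2 of 3 against DMSO_NEUR. Deviations within 3 libraries are tied to each other, so these values cannot show that the libraries were unpaired. With a replicate block, 10817 genes were called in NEUR against UNDIF (10917 without), 10527 with FT671 (10627 without) and 41 between vehicle and untreated cells (53 without), and the block changed no call of LHX5, ZIC2 or OTX2. Among LHX5, ZIC2 and OTX2, the groups with the fewest reads over 3 libraries were NEUR for LHX5, with 45, and FT671_NEUR for ZIC2, with 54; many genes named beside them had fewer.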
